A study of Macaca fascicularis with 9 samples.

Results

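The main astrocyte population of cynomolgus thalamus is described here, as the nuclei that the authors' deposited table names astrocytes and places in cluster 6. It held 3873 of the 79,994 nuclei of the series and 3873 of the 4411 nuclei named astrocytes. The other 538 astrocyte nuclei formed cluster 12. Nuclei came from frozen thalamus of 9 female cynomolgus monkeys (Macaca fascicularis), 3 in each of 3 groups. The ASO animals received 1 intrathecal dose of 4 mg of an antisense oligonucleotide against MALAT1, a long noncoding RNA that is retained in the nucleus. The OTV animals received OTV:MALAT1, a MALAT1 oligonucleotide on a carrier that binds the transferrin receptor, in 4 intravenous doses of 30 mpk. The saline animals received 4 intravenous doses of saline and are the controls of both treatments. Tissue was collected 2 weeks after the last dose in all groups. The labels give no ages, no library batch and no link between animals of different groups. No group received an intrathecal injection without the oligonucleotide, so the oligonucleotide and its injection cannot be told apart in the ASO animals. Nor did any group receive the carrier without the oligonucleotide, so these cannot be told apart in the OTV animals.

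Astrocytes clear glutamate and GABA from synapses, buffer potassium, move water through aquaporin channels at vessel end feet, and export lipid on apolipoprotein E particles. They carry a lasting positional identity. Transcription factors of the embryonic brain region in which they arose stay on, such as LHX2 in the telencephalon and IRX and ZIC factors in the diencephalon and farther back. Telencephalic and diencephalic astrocytes are also known to differ in the transporters they use.

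Saline replicates 1, 2 and 3 gave 266, 870 and 240 nuclei of cluster 6, the ASO replicates 671, 138 and 442, and the OTV replicates 374, 175 and 697. Summed over these nuclei, an animal had between 1,116,129 and 9,231,324 unique molecular identifiers (UMIs, counted RNA molecules). Median UMIs per nucleus ran from 3725 in OTV replicate 3 to 12,279.5 in ASO replicate 2. A doublet score over 0.5 was present in 6 nuclei, and 1 barcode sequence was shared between libraries of cluster 6. Cluster 6 of saline replicate 3 and of ASO replicate 3 stood apart from the other 7 libraries, because LHX2 was highest and IRX5 was listed at 0 there. Those 2 libraries therefore go against the label thalamus, and the counts and many of the genes below are also given for diencephalic nuclei only, a fit that leaves both of them out.

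The nuclei carried an astrocyte profile. Levels are given in CPM, the UMIs of a gene over the summed nuclei of an animal scaled to a common total, which compare animals and cell types for 1 gene but not different genes. Of 10 astrocyte markers, 9 were higher in cluster 6 than in oligodendrocytes, oligodendrocyte precursor cells (OPCs), myeloid nuclei and neurons. The exception was RYR3, a calcium release channel, at 23.4 CPM ± 20.5 in cluster 6 (SD, n = 9) against 772 ± 600.3 in neurons (SD, n = 7 animals with at least 20 neurons). AQP4, the water channel, was at 510.0 CPM ± 285 (SD, n = 9) against at most 21.2 in another type, which were the OPCs. SLC1A2, the main glutamate transporter of the forebrain, was at 7062 CPM ± 3972 against 458 in OPCs. SLC1A3, a second glutamate transporter, marked the population least sharply, at 1960 CPM ± 905 against 1332 ± 617 in myeloid nuclei (SD, n = 9).

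At least 1 UMI of AQP4 was found in 83.3% of cluster 6 nuclei and in 7.24% of 4500 sampled oligodendrocytes, a type that should lack it, with median depths of 8312 and 5469.5 UMIs. Thinned to 1000 UMIs per nucleus, the shares were 34.1% and 1.44%. For SLC1A2 the thinned shares were 90.7% and 2.64%, and for SLC1A3 74.5% and 10.4% (97.8% against 11.3% and 98.4% against 38.0% before thinning). RYR3, at 2.19% and 1.69% after thinning, stayed near this background. No test applies to these values, since the clusters were made from the same genes.

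Among the 3376 genes with a symbol and at least 50 CPM in cluster 6, 323 were over 2 times and 79 over 10 times the level of the highest other type. The urea transporter SLC14A1 led, at 170 CPM against 1.11 in OPCs. ALDH1A1, which makes retinoic acid, was at 1891 CPM against 14.9 in myeloid nuclei. Others of the leading 20 were ETNPPL, a phospholyase (806 CPM), PRDM16, a transcription factor (277), SDC4, a heparan sulfate proteoglycan (165), LAMA1, a laminin chain (337), the NAD-consuming enzyme CD38 (271) and the growth factor receptor FGFR3 (366). Their levels in the highest other type lay between 1.88 and 7.52 CPM. SLC14A1 was itself uneven over animals, from 13.1 to 663 CPM, and the same held for ITPRID1, from 15.5 to 822 CPM, whereas ACSS3, an acyl-CoA synthetase, ran from 94.8 to 176 CPM.

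**Figure D1:**
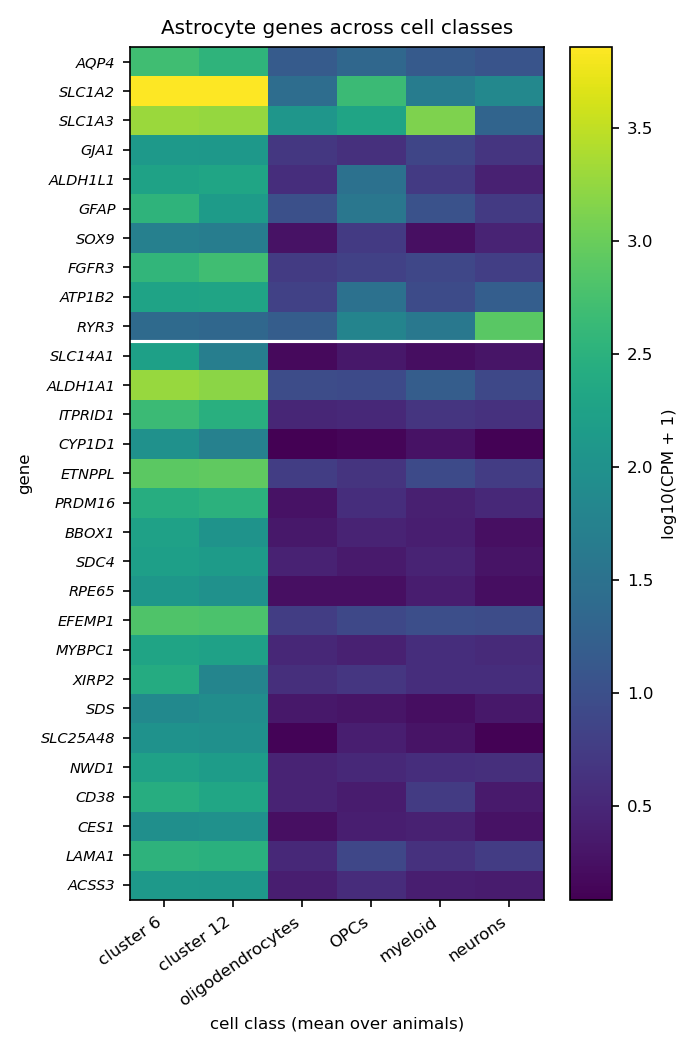
Colour gives log10(CPM + 1), as the mean over animals, of 10 astrocyte markers (above the white line; FGFR3 is in both sets) and of the other leading genes of cluster 6 (below it) in 6 cell classes. Clusters 6 and 12 are both bright in nearly every row, RYR3 is brightest in neurons, and SLC1A3 is also bright in myeloid nuclei.

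The nuclei differed in positional identity from animal to animal. LHX2, a cortical transcription factor, was at 33, 2.27 and 87.6 CPM in saline replicates 1, 2 and 3, at 0.289, 3.29 and 95.4 in the ASO replicates, and at 0.276, 0 and 0.335 in the OTV replicates. IRX5, a factor of the caudal forebrain and midbrain, was at 11, 31.7 and 0 CPM in saline, 43.4, 24.1 and 0 in ASO and 23.5, 31.4 and 19.8 in OTV animals. LHX2 was thus high in saline replicates 1 and 3 and in ASO replicate 3, and IRX5 was not detected in 2 of these 3. A count of 0 for IRX5 allows up to 1.79 CPM in saline replicate 3 and 0.811 in ASO replicate 3. ZIC1 behaved likewise, at 8.26, 21.2 and 0 CPM, then 2.17, 15.4 and 0, then 8.56, 16.1 and 11.7. NR2E1, also of the telencephalic list, lay between 10.1 and 38.1 CPM in all 9 animals and separated them little.

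A nucleus was called telencephalic when it had a UMI of a list of 4 telencephalic transcription factors, LHX2 and NR2E1 among them, and none of 13 caudal factors, and diencephalic in the reverse case. By that rule 57.9%, 7.84% and 97.6% of the sided nuclei were telencephalic in saline replicates 1, 2 and 3, against 7.0%, 25% and 97.4% in the ASO and 9.13%, 11.5% and 10.9% in the OTV replicates. The 3 groups did not differ beyond the spread between animals (two-sided exact permutation test over 280 partitions, p = 0.454, n = 3 each). A stricter rule chosen after the values were seen, which leaves NR2E1 and EMX2 out of the first list and OTX2 out of the caudal list, gave 56.7%, 1.67% and 98.6%, then 0.276%, 13.8% and 99.1%, then 0.529%, 0% and 0.649% (exact p = 0.350). The 0 in OTV replicate 2 stands for 0 of 81 nuclei, and the exact Clopper-Pearson 95% interval reaches 4.45%. Saline and ASO groups each held animals toward both ends of this range, and the 3 OTV animals lay at the diencephalic end.

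**Figure D2:**
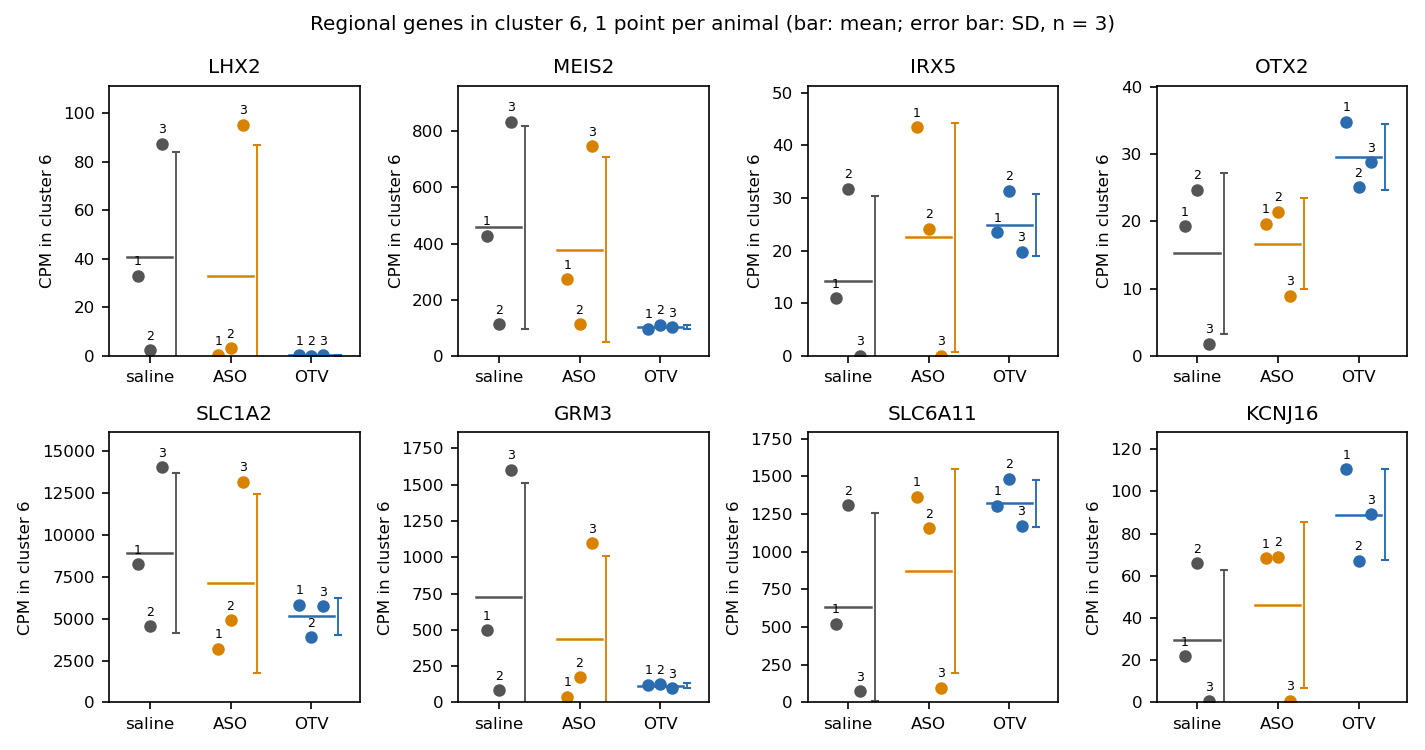
Each point is the CPM of 1 gene in cluster 6 of 1 animal, numbered by replicate; bars are means and error bars SDs (n = 3), cut off at 0. LHX2, MEIS2, SLC1A2 and GRM3 are highest in saline replicate 3 or ASO replicate 3, where IRX5, SLC6A11 and KCNJ16 are at or near their lowest.

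Saline replicate 1 held both kinds of nuclei in 1 untreated library, 97 telencephalic and 74 diencephalic by the stricter rule, with 942,263 and 769,722 UMIs. This comparison within 1 animal has no replicate check and no test, and intervals are exact Poisson 95% intervals that cover counting error only. Of 3259 genes with a symbol and at least 50 CPM, leaving out the genes of the rule, 110 were over 2 times higher on the telencephalic and 130 on the diencephalic side. SLC1A2 was at 12,322 CPM (interval 12,100 to 12,550) against 4176 (4032 to 4322). Telencephalic nuclei also had more GRM3, a metabotropic glutamate receptor (919 against 90.9 CPM), more of the AMPA receptor subunit GRIA1 (277 against 16.9), and more of the adhesion receptor ADGRV1 (9105 against 1004). WIF1, a secreted Wnt inhibitor, was at 121 against 11.7 CPM, and the homeodomain factor MEIS2 at 713 against 101.

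Other genes were higher in the diencephalic nuclei of this animal. SLC6A11, the GABA transporter GAT-3, was at 137 CPM on the telencephalic and 986 on the diencephalic side, and the glycine transporter SLC6A9 at 9.55 and 54.6. GABBR2, a subunit of the GABA-B receptor, was at 22.3 and 400.1 CPM. Over the 6 animals of the test across animals, neither SLC6A11 (-0.64, adjusted p = 0.911) nor SLC6A9 (-0.64, adjusted p = 0.603) was called. The potassium channel subunit KCNJ16 was at 1.06 (interval 0.03 to 5.91) and 36.4 CPM (24.2 to 52.6), the cation channel TRPM3 at 570 and 3869, RGS6, a regulator of G protein signalling, at 77.5 and 1224, and ITPRID1 at 14.9 and 690. AGT, TCF7L2 and GFAP, listed as higher outside the telencephalon, were nearly level, with AGT at 225 and 217 CPM and GFAP at 343 and 389. MALAT1 was at 73,350 and 71,090 CPM.

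**Figure D3:**
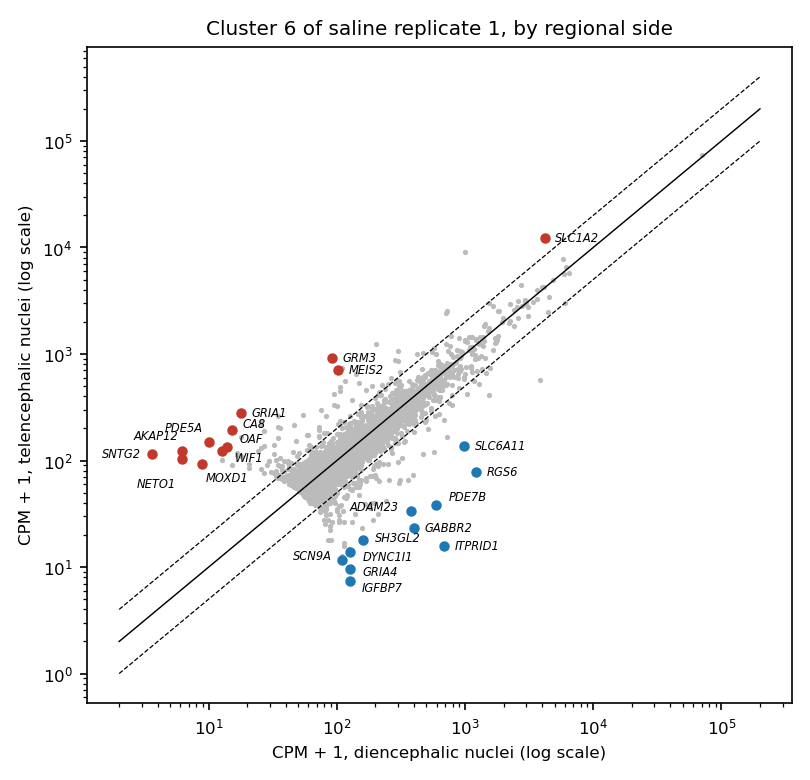
Each point is 1 of 3259 genes, with its CPM + 1 in diencephalic (x) and telencephalic (y) nuclei of cluster 6 in saline replicate 1, both on log axes; the solid line marks equal levels and the dashed lines a ratio of 2. Genes named in red (GRM3, MEIS2, GRIA1) lie above the lines and those in blue (RGS6, ITPRID1, SLC6A11) below.

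Most of the same genes separated other animals. Of the 110 genes higher on the telencephalic side, 101 (91.8%) were higher in saline replicate 3 than in saline replicate 2, against 48.3% of all 3259 genes, and of the 130 diencephalic genes 11 (8.46%). Between ASO replicates 3 and 1 the counts were 103 of 110 (93.6%) and 10 of 130 (7.69%), against 48.8% of all 3259 genes. Between ASO replicates 3 and 2 they were 107 of 110 and 8 of 130, against 53.2%. GRIA1 was an exception in the saline pair, at 59.6 CPM in replicate 3 and 147 in replicate 2. In the ASO replicates it went with the others, at 2.17, 35.1 and 61.1 CPM. SLC1A2 had 8232, 4559 and 14,030 CPM in saline, 3214, 4916 and 13,160 in ASO and 5824, 3877 and 5744 in OTV replicates 1, 2 and 3. Its most telencephalic libraries were also its highest. GRM3 spanned a wider range, with 497, 85.8 and 1603 CPM in saline, 39.4, 173 and 1096 in ASO and 121, 127 and 96.8 in OTV animals. SLC6A11 ran the opposite way, at 522, 1308 and 72.7 CPM, then 1365, 1155 and 98.6, then 1307, 1485 and 1172.

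A test of the 2 sides across animals called no gene. It used 6 animals with at least 20 nuclei of each side by the broader rule, with animal as a block, and edgeR's quasi-likelihood test called 0 of 10,295 genes (0.0%), with 673 at an unadjusted p under 0.05. The DESeq2 Wald test called 5. The telencephalic side of that test was mostly defined by NR2E1 outside saline replicate 1: 89.3% of its telencephalic nuclei had a UMI of a factor of the stricter rule, against 18.2% in saline replicate 2, 3.57% in ASO replicate 1, 52.2% in ASO replicate 2, 5.0% in OTV replicate 1 and 4.17% in OTV replicate 3. Without ASO replicate 1 it called 38 genes and without OTV replicate 1 it called 9.

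MALAT1, the target of both oligonucleotides, took 7.44%, 5.94% and 4.62% of cluster 6 UMIs in saline replicates 1, 2 and 3. The ASO replicates gave 4.95%, 6.04% and 6.24% and the OTV replicates 4.58%, 3.74% and 3.96%. The 3 OTV values were the lowest of the 9, although OTV replicate 1 was close to saline replicate 3, and the ASO values fell within the saline range. Means were 6.0% ± 1.41 for saline, 5.74% ± 0.692 for ASO and 4.10% ± 0.437 for OTV (SD, n = 3 each), so that ASO and OTV animals kept 95.8% and 68.3% of the saline mean. The Wilson 95% interval of an animal was at most ± 0.0352 percentage points wide and covers counting error only. The 3 groups did not differ beyond the spread between animals in the exact permutation test (p = 0.150, smallest possible 0.00357), but without saline replicate 3 the exact p was 0.0250. For pairs of groups, exact p was 1.00 for ASO against saline and 0.1 for OTV against saline and against ASO, the smallest that 3 against 3 allows.

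In edgeR's quasi-likelihood test over all genes, with Benjamini-Hochberg adjustment, the log2 fold change of MALAT1 was -0.12 for ASO against saline (adjusted p = 1.00) and -0.51 for OTV against saline (SE 0.24, adjusted p = 0.185). Diencephalic nuclei only, from 2 saline, 2 ASO and 3 OTV animals, gave -0.60 for OTV against saline (adjusted p = 0.144). By the stricter rule MALAT1 took 7.33% of UMIs in telencephalic and 7.11% in diencephalic nuclei of saline replicate 1, so the sides differed less than the saline animals did. Saline replicate 2 had 5.78% in its diencephalic nuclei. The diencephalic shares were 4.83% for ASO replicate 1, 5.76% for ASO replicate 2, and 4.56%, 3.96% and 3.90% for the OTV replicates. Telencephalic nuclei had 4.50% in saline replicate 3 and 6.13% in ASO replicate 3. The change under OTV was 0.41 higher, that is smaller in size, than in oligodendrocytes of the same animals (SE 0.27, interaction test in edgeR, adjusted p = 0.675), and it differed by -0.01 from that of OPC cluster 4 (adjusted p = 1.00), so neither difference passed.

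**Figure D4:**
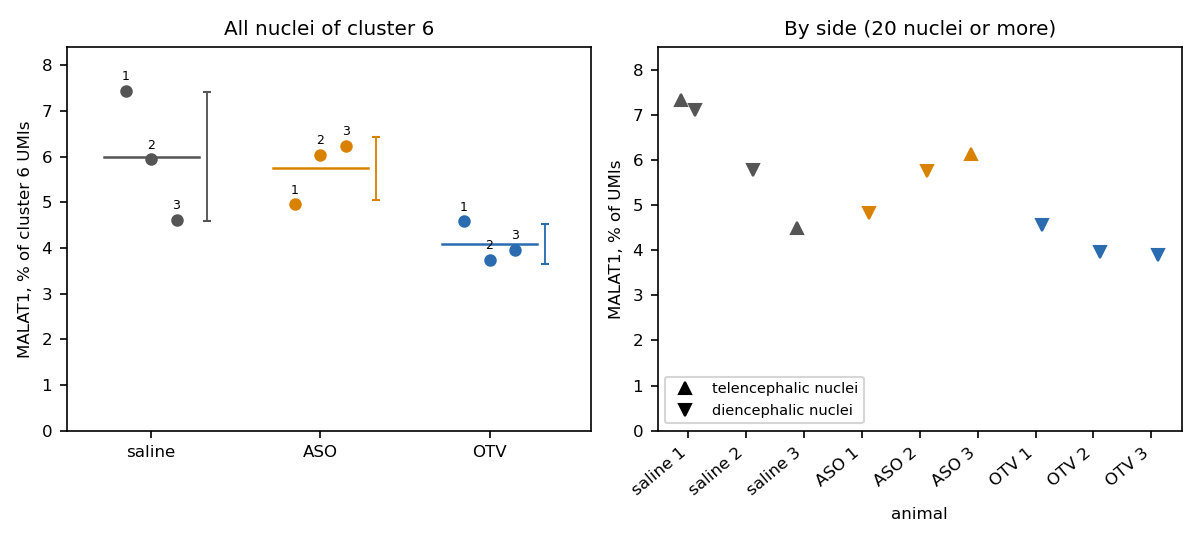
Left, MALAT1 as a percentage of cluster 6 UMIs in each animal, with group means and SDs (n = 3); right, the same in telencephalic and diencephalic nuclei with at least 20 nuclei per animal. OTV animals sit between 3.74% and 4.58%, and the 2 sides of saline replicate 1 are at 7.33% and 7.11%.

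At equal depth the OTV nuclei were also low. Thinned to 1000 UMIs, the median nucleus had 73, 57 and 45 MALAT1 UMIs in saline, 50, 60 and 63.5 in ASO and 45, 34 and 39 in OTV replicates 1, 2 and 3. The median of OTV replicate 1 then equalled that of saline replicate 3, and those of OTV replicates 2 and 3 were below all others. LTBP3, which lies near MALAT1 on its chromosome, was at 50.1 CPM ± 3.33 in saline and 78.3 ± 23.9 in OTV animals (SD, n = 3), a log2 difference of 0.70 with adjusted p = 0.0740. TFRC, the transferrin receptor, was at 23.2, 27.8 and 19.7 CPM in saline, 29.4, 30.2 and 29.4 in ASO and 35.6, 29.6 and 34.2 in OTV animals. Every ASO and every OTV animal lay above the saline animals, and the log2 difference of 0.53 for OTV against saline did not pass (adjusted p = 0.0842).

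The intrathecal ASO was followed by almost no called difference in this population. Of 13,193 genes tested, edgeR's quasi-likelihood test called 2 for ASO against saline (0.0152%), both higher, and 798 had an unadjusted p under 0.05. Both are features without a symbol, named here after their values were seen. ENSMFAG00000046424 had 322, 176 and 243 UMIs in the ASO replicates, 3, 6 and 0 in saline and 13, 4 and 12 in OTV replicates. ENSMFAG00000046427 had 117, 35 and 53 UMIs in ASO, 0, 2 and 0 in saline and 9, 0 and 2 in OTV replicates. For both, the ASO animals lay above all others. Relative to the total UMIs of each animal, ENSMFAG00000046424 was also higher in every OTV than in every saline animal and was called (log2 2.50, adjusted p = 0.0178), a call lost without OTV replicate 3 or saline replicate 2 (adjusted p up to 0.0830) and in diencephalic nuclei (adjusted p = 0.113). For ENSMFAG00000046427 saline and OTV animals overlapped (adjusted p = 0.0610). Of the calls for ASO against saline, that of ENSMFAG00000046424 was kept without each animal and that of ENSMFAG00000046427 held only without OTV replicate 1 or OTV replicate 2 (adjusted p up to 0.293). No member of any gene list was called, among them 34 astrocyte identity genes, 15 reactive astrocyte genes, 15 interferon and nucleic acid sensing genes and 12 p53 targets. Median log2 differences over those lists were -0.14, 0.27, 0.01 and -0.04, beside 0.00 over all genes. The medians of the other lists lay between -0.99, for 2 striatal markers, and 0.46, except for the mitochondrially encoded genes, 12 tested and 0 called. Their summed level was 272, 222 and 79.8 CPM in saline and 3.32, 6.59 and 2.43 CPM in ASO animals, so every ASO animal was below every saline animal. Leaving out 1 animal gave 1 to 6 calls, with 1 without saline replicate 1 or 2 and without ASO replicate 1 or 2, and more than 3 without OTV replicate 2 (6) and without saline replicate 3 (4). The DESeq2 Wald test called 70.

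GFAP, the intermediate filament that reactive astrocytes make, was at 402, 286 and 124 CPM in saline, 645, 308 and 236 in ASO and 66.8, 1021 and 61.0 in OTV replicates 1, 2 and 3. The groups overlapped, and OTV replicate 2 alone lay above all other animals. Neither treatment was called against saline for it (log2 difference 0.49 with adjusted p = 1.00 for ASO and 0.45 with adjusted p = 0.810 for OTV).

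OTV:MALAT1 was followed by a broad change. For OTV against saline 1930 of the 13,193 genes (14.6%) were called, 793 higher (6.01%) and 1137 lower (8.62%), and 1207 of the 1930 carry a symbol. In diencephalic nuclei only, 761 genes were called among 9971 tested (7.63%), 296 higher (2.97%) and 465 lower (4.66%), and 652 of the 1930 were called there in the same direction and none in the opposite one. The count was 831 without OTV replicate 3, 976 without saline replicate 1 and 1146 without saline replicate 2, and between 1481 and 1900 without any other animal. OTV nuclei of replicate 3 were the shallowest, and sums thinned to the smallest total gave 1075. The summed level of 13 mitochondrially encoded genes also moved with the groups, at 272, 222 and 79.8 CPM in saline, 3.32, 6.59 and 2.43 in ASO and 1697, 471 and 1080 in OTV replicates. Its part in the other changes was not tested.

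APOE, the apolipoprotein that carries astrocyte lipid, had the largest fall among the called astrocyte identity genes. It was at 749, 840 and 505 CPM in saline, 881, 813 and 504 in ASO and 125, 98.5 and 56.6 in OTV replicates 1, 2 and 3. Every OTV animal was below every other animal. The log2 fold change against saline was -2.86 (SE 0.35, 7.25-fold lower, edgeR adjusted p = 0.00152), and -3.0 in diencephalic nuclei (adjusted p = 0.000933). APOE was also called lower in oligodendrocytes (-2.51, adjusted p = 0.0351) and in OPC cluster 4 (-2.57, adjusted p = 0.00832) of the same animals. The change in cluster 6 differed from theirs by -0.54 (adjusted p = 0.919) and -0.02 (adjusted p = 1.00), neither of which passed. LRP1, an endocytic receptor for such particles, rose from 161, 216 and 168 to 393, 390 and 605 CPM (log2 1.40, SE 0.25, adjusted p = 0.00693), with 246, 283 and 182 in ASO animals. In diencephalic nuclei its log2 difference was 1.04 (adjusted p = 0.0646). These were the 2 calls among 25 tested genes of lipid and cholesterol metabolism, beside the 14.6% of all genes called, and APOE was the 1 call among 23 in diencephalic nuclei, beside 7.63% of all genes there.

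Among 18 tested genes of water, potassium and gap junctions 1 rose and 1 fell, beside the 14.6% of all genes called, and in diencephalic nuclei 1 rose and 3 fell, beside 2.97% and 4.66% of all genes. AQP4 was at 821, 429 and 475 CPM in saline, 916, 859 and 399 in ASO and 213, 310 and 168 in OTV replicates. OTV animals were all below the others, and its log2 fold change of -1.30 (SE 0.37) passed narrowly (edgeR adjusted p = 0.0451). Among 9 fits that each left out 1 animal, the call held only without ASO replicate 3, and adjusted p ranged from 0.0179 to 0.166 over the 9. In diencephalic nuclei AQP4 was called at -1.25 (adjusted p = 0.0165). So were the connexins GJA1, at -1.49 (adjusted p = 0.0108), and GJB6, at -1.08 (adjusted p = 0.0254), which form the gap junctions between astrocytes and were not called in all nuclei (-1.05 and -0.59, adjusted p = 0.278 and 0.244). SLC12A2, a sodium, potassium and chloride cotransporter, rose from 12.6, 17.8 and 25 to 43.6, 41.2 and 47.2 CPM (log2 1.32, adjusted p = 0.00808). KCNJ10, the main astrocyte potassium channel, was at 107, 171 and 103 CPM in saline and 226, 194 and 171 in OTV animals and did not pass (adjusted p = 0.181).

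Of the 34 tested astrocyte identity genes, 3 rose and 4 fell, beside 6.01% and 8.62% of all genes, with a median log2 difference of -0.34 beside -0.02 over all genes. In diencephalic nuclei 1 rose and 5 fell, beside 2.97% and 4.66% of all genes. ALDH1L1, a folate enzyme used as an astrocyte marker, was at 124, 152 and 134 CPM in saline, 110, 121 and 116 in ASO and 277, 253 and 330 in OTV replicates. It rose by 1.11 on the log2 scale (SE 0.16, adjusted p = 0.00316) and kept its call without each animal. FGFR3 (0.70, adjusted p = 0.0280) and NDRG2 (0.68, adjusted p = 0.0411) rose by less. FGFR3 lost its call without OTV replicates 2 or 3 or any 1 saline animal, and NDRG2 without ASO replicates 1 or 2, OTV replicates 1 or 3, or saline replicates 1 or 2, with adjusted p up to 0.110 and 0.138. Neither was called in diencephalic nuclei (adjusted p = 0.162 and 0.159). Beside APOE and AQP4, the BMP receptor BMPR1B fell from 610, 571 and 627 to 368, 395 and 302 CPM (-0.73, adjusted p = 0.0126) and the BMP target ID4 from 489, 299 and 251 to 138, 229 and 147 (-1.0, adjusted p = 0.0309). Both calls were lost without OTV replicate 3 and without saline replicate 1, and that of ID4 also without OTV replicate 1, with adjusted p up to 0.0609 and 0.124. In diencephalic nuclei ID4 was called at -1.21 (adjusted p = 0.0210) and BMPR1B was not (-0.63, adjusted p = 0.0750). SLC1A3, a marker that defines the class, was at 2321, 1823 and 3699 CPM in saline and 1248, 1260 and 1124 in OTV animals. Its log2 difference of -1.08 missed the threshold (adjusted p = 0.0580), and it was not called in diencephalic nuclei either. SLC1A3 also differed by side in saline replicate 1, at 2995 CPM in telencephalic and 1541 in diencephalic nuclei. In ASO replicates 1, 2 and 3 it was at 1414, 1654 and 3099 CPM. By their transcription factors the OTV animals lay at the diencephalic end, as did saline replicate 2 and ASO replicate 1. How far position accounts for the SLC1A3 difference was not tested. ADGRV1, which differed between the sides of saline replicate 1, was at 5122, 423 and 8631 CPM in saline, 75.5, 1313 and 8225 in ASO and 24.0, 113 and 62.6 in OTV animals. Its log2 difference of -6.19 was the largest of the list and was not called (adjusted p = 0.0570, and 0.252 in diencephalic nuclei).

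AGT, which encodes angiotensinogen, the precursor of the angiotensin peptides, fell from 237, 199 and 130 to 73.8, 102 and 60.6 CPM (-1.24, SE 0.26, adjusted p = 0.0134), with 238, 285 and 187 in ASO animals. It was level between the sides of saline replicate 1, and in diencephalic nuclei it fell by 1.44 on the log2 scale (adjusted p = 0.0174). Its call was lost without OTV replicate 3 and without saline replicate 1, with adjusted p up to 0.0692. The transmitter handling genes SLC6A11, SLC1A2 and GRM3, which differed between the sides of saline replicate 1, were not called (adjusted p = 0.512, 0.394 and 0.207).

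Growth factor and Notch signalling genes gave 2 higher and 3 lower calls among 31, beside the 14.6% of all genes called, and 2 higher and 1 lower among 30 in diencephalic nuclei, beside 7.63% of all genes there. The receptor FGFR1 was at 651, 847 and 491 CPM in saline, 627, 693 and 530 in ASO and 1234, 1800 and 1288 in OTV replicates, above all other animals. It rose by 1.15 on the log2 scale (SE 0.22, adjusted p = 0.00967) and by 0.85 in diencephalic nuclei (adjusted p = 0.0450). The Notch target HEY1 fell from 16.1, 10.8 and 22.0 to 3.59, 5.38 and 3.69 CPM (-1.93, SE 0.33, adjusted p = 0.00580), with a value of -1.21 in diencephalic nuclei (adjusted p = 0.124). FGFR1 and HEY1 kept their calls without each animal. The other 3 were FGFR3, BMPR1B and ID4. Of 21 tested genes that act on synapses 1 was called, beside 14.6% of all genes. It was the glypican GPC4, which fell from 61.7, 44.4 and 75.1 to 26.5, 21.5 and 19.8 CPM (-1.35, adjusted p = 0.0171), with 38.1, 19.2 and 40.3 in ASO animals, and its call was lost without OTV replicate 3 or saline replicate 1 (adjusted p up to 0.0806) and in diencephalic nuclei (-0.89, adjusted p = 0.133). There the 1 call among 20 was SPARC, a secreted matrix protein, at -0.80 (adjusted p = 0.0488), beside 7.63% of all genes, and SPARC was not called in all nuclei (-0.10, adjusted p = 0.957).

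Genes of the reactive state gave 2 calls among 15 tested, both higher, beside the 6.01% of all genes called higher, and 1 among 14 in diencephalic nuclei, beside 2.97% there. SYNM, the intermediate filament protein synemin, rose from 9.83, 8.99 and 7.74 to 20.4, 23.3 and 20.1 CPM (1.29, SE 0.24, adjusted p = 0.00751), and by 1.90 in diencephalic nuclei (adjusted p = 0.0172). BCL6, a transcriptional repressor, rose by 1.03 (adjusted p = 0.0367), a call that held only without ASO replicate 3 or OTV replicate 3 (adjusted p up to 0.0975) and was lost in diencephalic nuclei (adjusted p = 0.0987). No gene was called among 12 p53 targets and 15 genes of glycolysis and glycogen, beside 14.6% of all genes. In the list of endosome, lysosome and iron uptake, LRP1 was higher and the protease CTSB lower (-0.57, adjusted p = 0.0496) among 24 genes, beside 14.6% of all genes called. In diencephalic nuclei 0 of 20 were called, beside 7.63% of all genes. The CTSB call was lost without any 1 of the 9 animals (adjusted p up to 0.164) and in diencephalic nuclei (adjusted p = 0.109).

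Of 23 tested cytosolic ribosomal protein genes 9 fell and 0 rose, beside the 8.62% of all genes called lower, with a median log2 difference of -0.84. In diencephalic nuclei 7 of 22 fell, beside 4.66% of all genes. RPS6, RPS13 and RPLP0 kept their calls without each animal. RPL15, RPL18, RPLP1, RPL37A, RPS23 and RPL10A lost theirs without OTV replicate 3 and without saline replicate 1. All of these but RPL15 also lost it without saline replicate 2, RPLP1, RPL37A and RPS23 without OTV replicate 2, RPS23 and RPL10A without OTV replicate 1 or ASO replicate 1, RPL10A without ASO replicates 2 or 3 and RPL37A without saline replicate 3 (adjusted p up to 0.165). The summed level of the 24 in the files was 726, 739 and 468 CPM in saline, 632, 724 and 698 in ASO and 384, 337 and 351 in OTV replicates. RPS6, a protein of the small subunit, fell from 169, 160 and 114 to 59.4, 46.6 and 65.7 CPM (-1.31, SE 0.23, adjusted p = 0.00635). It was lower in oligodendrocytes (-1.53) and OPC cluster 4 (-1.68) as well, and its differences from these of 0.25 and 0.38 did not pass (adjusted p = 0.800 and 0.709). Of 26 splicing and nuclear speckle genes 4 rose and 1 fell, beside 14.6% of all genes called, and in diencephalic nuclei SRRM2 was the 1 call of 26 (1.11, adjusted p = 0.0174), beside 7.63% of all genes there, with adjusted p of 0.0913 to 0.111 for the other 4. SRRM2, a scaffold of nuclear speckles, the bodies in which MALAT1 resides, rose from 319, 335 and 338 to 544, 658 and 869 CPM (1.1, SE 0.19, adjusted p = 0.00580). PNISR and SF3B1 rose by 0.74 and 0.73, calls that were both lost without OTV replicate 3, saline replicates 1, 2 or 3, and for SF3B1 also ASO replicates 1 or 2 or OTV replicate 2 (adjusted p up to 0.0816 and 0.141). The splicing factor U2AF2 rose by 1.15 (adjusted p = 0.00979) and SRSF2 fell by 0.91 (adjusted p = 0.0353), the latter not without ASO replicate 1, OTV replicates 2 or 3, or saline replicates 1 or 2 (adjusted p up to 0.132). The heat shock regulator HSF1 rose by 1.02 (adjusted p = 0.00354), while the chaperones DNAJA1 (-1.12, adjusted p = 0.00321) and TCP1 (-0.84, adjusted p = 0.0165) fell. Those 3 were the calls among 20 chaperone genes, beside 14.6% of all genes called, and that of TCP1 was lost without OTV replicate 3 or saline replicates 1 or 2 (adjusted p up to 0.0786). In diencephalic nuclei 3 of 18 were called, all lower, beside 4.66% of all genes. They were DNAJA1, TCP1 and the chaperone HSPA8 (-1.39, adjusted p = 0.0377), which was not called in all nuclei (-1.02, adjusted p = 0.151), and HSF1 was not called there (0.92, adjusted p = 0.0511).

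Of 12 tested mitochondrially encoded genes 10 rose, beside 6.01% of all genes called higher, and 7 of 12 rose in diencephalic nuclei, beside 2.97% there. ATP6, ND3, ND4, ND4L and COX3 lost their calls without OTV replicate 3 and without saline replicate 2, with adjusted p up to 0.118. COX3 also lost its call without saline replicate 1, and ATP6, ND3 and ND4 without OTV replicate 1 or saline replicates 1 or 3. The calls of ATP8, COX1, ND1, ND2 and ND5 were kept without each animal. ND1, a subunit of complex I, was at 30.3, 19.7 and 7.74 CPM in saline, 0.289, 1.1 and 0.270 in ASO and 143, 59.1 and 97.1 in OTV replicates. Its log2 fold change for OTV against saline was 2.42 (SE 0.48, adjusted p = 0.0129). ND1 also rose in oligodendrocytes (2.06, adjusted p = 0.0401) and in OPC cluster 4 (2.45, adjusted p = 0.00272). Mitochondrial RNA is made outside the nucleus. The ASO animals had 23, 12 and 9 UMIs of the 13 genes in all, and none of the list was called for ASO against saline.

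**Figure D5:**
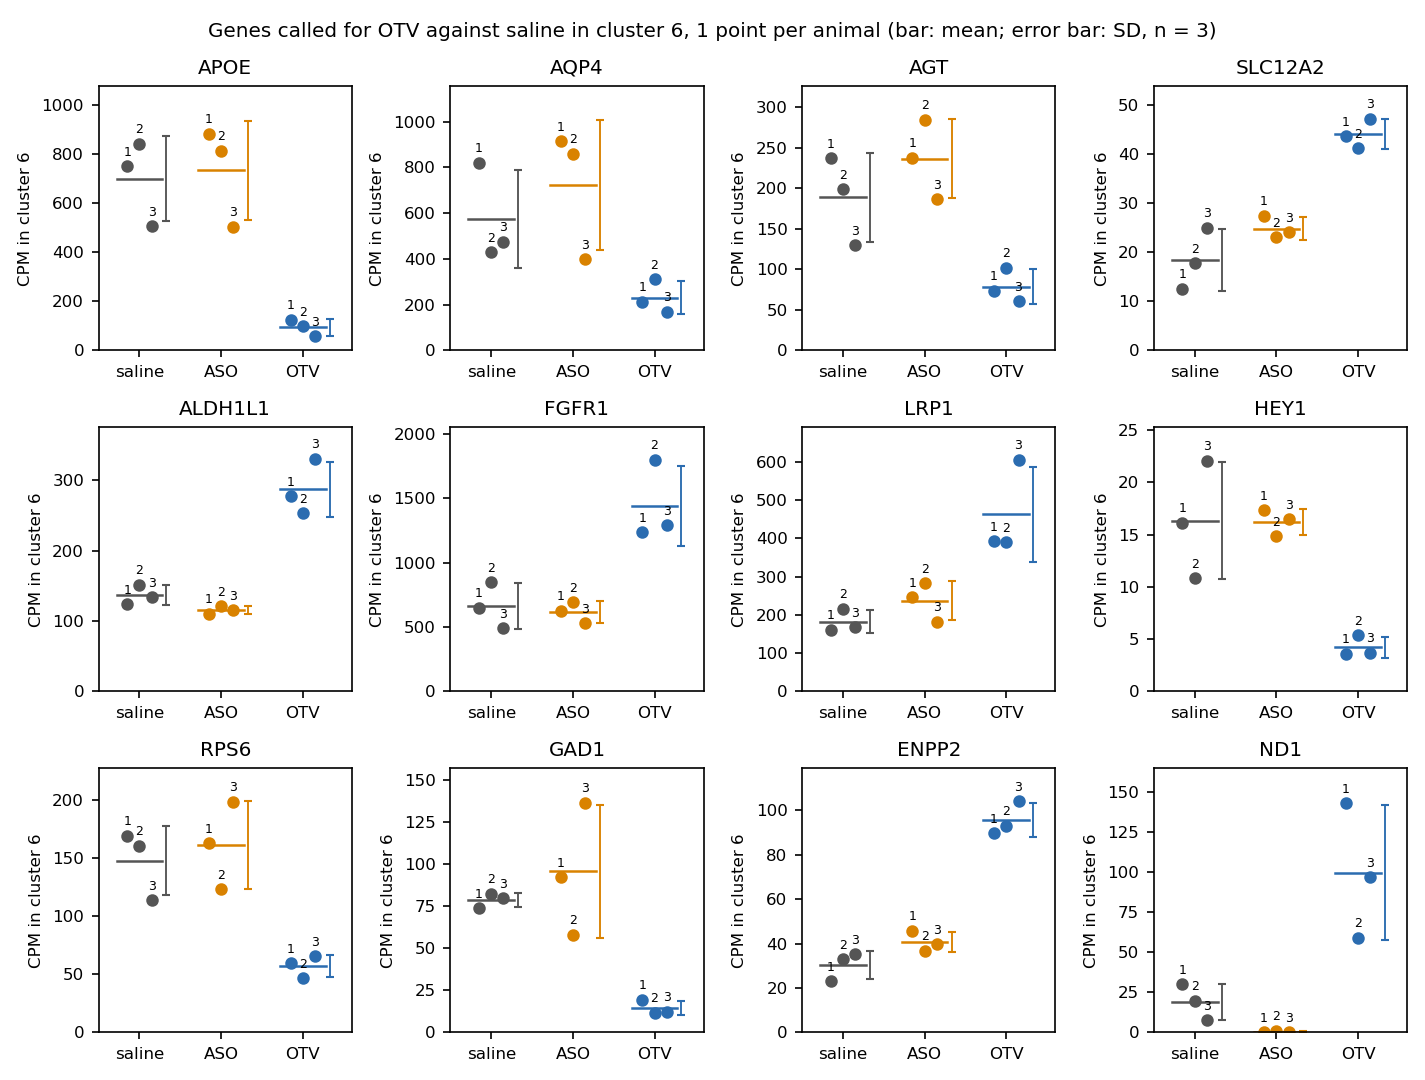
CPM in cluster 6 of each animal, numbered by replicate, for 12 of the 52 list and marker genes called for OTV against saline, with group means and SDs (n = 3). In each of the panels the 3 OTV animals lie on 1 side of all 6 saline and ASO animals.

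The genes with the smallest adjusted p for OTV against saline, by a rule on symbols, level and no overlap, came from several functions. EFEMP2, an extracellular matrix fibulin, rose from 16.1, 15.2 and 16.1 to 63.5, 72.6 and 79.7 CPM (2.23, SE 0.22, adjusted p = 0.000739). INPPL1, a phosphoinositide phosphatase, rose 4.40-fold from 52.7, 55.6 and 64.9 to 204, 179 and 351 CPM, and the histone acetyltransferase KAT2A 2.59-fold from 81.0, 85.7 and 95.9 to 245, 206 and 208. MICALL2 rose 6.13-fold, TNS1, which links integrins to actin, 3.54-fold, the potassium channel KCNA2 3.78-fold and the ubiquitin ligase MIB2 3.34-fold. TMEM259, AP3D1, MAD1L1 and SLC39A13, a zinc transporter, rose between 2.30- and 3.07-fold. In ASO animals EFEMP2 was at 12.7, 20.3 and 14.1 CPM.

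Among genes that fell, REEP5, which shapes tubular endoplasmic reticulum, went from 451, 411 and 459 to 87.0, 87.8 and 74.4 CPM (-2.37, SE 0.21, adjusted p = 0.000550). It also fell in oligodendrocytes (-1.27) and OPC cluster 4 (-1.68), and the differences of -1.08 and -0.65 from these did not pass (adjusted p = 0.0553 and 0.474). The cohesin subunit SMC1B fell from 19.6, 19.3 and 25.6 to 1.1, 1.79 and 1.0 CPM. FGL1, a secreted protein of the fibrinogen family, fell 8.17-fold from 123, 115 and 133 to 12.2, 23.3 and 11.4 CPM. The replicative helicase subunit MCM7 fell 4.45-fold and MCMDC2, which holds a related domain, 5.16-fold. NKIRAS1, an inhibitor of NF-kappa-B signalling, FAM151A, RARRES1, TNP2, DNAH14, IGSF6 and KLHL28 fell between 2.39- and 6.14-fold. All 24 of these rising and falling genes kept their call without each of the 9 animals. They were also called in the same direction in diencephalic nuclei only, where adjusted p was at most 0.0291. The 24 were chosen for the smallest adjusted p in these same animals, so this is no independent check. Of all 1930 calls, 33.8% were kept in diencephalic nuclei and 41.9% without OTV replicate 3.

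Markers of other cell types were present at low levels and some moved with OTV. Of 9 oligodendrocyte markers in the files 4 rose, beside the 6.01% of all genes called higher, and 3 of 9 rose in diencephalic nuclei, beside 2.97% there. ENPP2, an enzyme of lysophosphatidic acid synthesis, went from 23.2, 33 and 35.1 to 89.8, 93.2 and 104 CPM (1.70, adjusted p = 0.00107), MOBP, a myelin protein, from 7.47, 7.69 and 12.5 to 25.7, 28.7 and 63.0 (2.19, adjusted p = 0.00875) and ST18, a transcription factor, from 11.8, 12.1 and 31.6 to 51.9, 84.2 and 56.6 (1.87, adjusted p = 0.0124). MOG rose by 0.84 (adjusted p = 0.0334), a call lost without OTV replicates 1 or 3 or saline replicates 1 or 2 (adjusted p up to 0.121) and in diencephalic nuclei (adjusted p = 0.0694). The summed level of the list was 372 to 470.0 CPM in saline, 515 to 783 in ASO and 582 to 794 in OTV animals, beside a median of 8820 in oligodendrocytes, and no listed marker was at 0. ENPP2 was called for a difference from its change in oligodendrocytes (1.64, SE 0.23, adjusted p = 0.0270), in which it moved by 0.09; like all calls against oligodendrocytes, this one was lost without saline replicate 1. GAD1, which makes GABA and was listed with the neuronal markers, fell from 73.9, 82.3 and 79.8 to 19.3, 11.7 and 12.4 CPM (-2.35, SE 0.32, adjusted p = 0.00217), while the summed neuronal markers overlapped (166 to 238 CPM in saline, 136 to 205 in OTV). TTR, listed for ependymal cells, fell from 8.65, 4.01 and 9.53 to 1.1, 0.896 and 1.0 CPM (adjusted p = 0.0220), a call lost without any 1 OTV animal or saline replicate 1 (adjusted p up to 0.0914), and was not tested in diencephalic nuclei. SKAP1, of the T cell list, fell by 1.64 on the log2 scale (adjusted p = 0.00809), with -0.93 in diencephalic nuclei (adjusted p = 0.271). GAD1, TTR and SKAP1 were the calls among 8 neuronal, 5 ependymal and 2 T cell markers tested, beside 8.62% of all genes called lower. No OPC, myeloid, striatal, endothelial or pericyte marker was called. The part of RNA from other cells in the results above was not tested.

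Whether cluster 6 responded in its own way was tested as the difference of its OTV change from that of another class in the same animals. Against oligodendrocytes 39 of 17,606 genes (0.222%) differed, 24 in the positive (0.136%) and 15 in the negative direction (0.0852%). Against OPC cluster 4 the count was 6 of 15,729 (0.0381%), 4 positive (0.0254%) and 2 negative (0.0127%). PRKCQ, a protein kinase C, was at 526, 521 and 673 CPM in saline and 66.6, 129 and 38.5 in OTV animals of cluster 6, against 157, 160 and 294 and then 168, 156 and 141 in oligodendrocytes. GSAP, gamma-secretase activating protein, fell in cluster 6 from 743, 565 and 309 to 126, 109 and 115 CPM, and was at 84.6, 77.9 and 85.5 and then 73.0, 102 and 123 in oligodendrocytes. RORB, a nuclear receptor, was at 398, 253 and 482 CPM in saline and 388, 203 and 268 in OTV animals of cluster 6, with no call there, and rose in oligodendrocytes from 3.73, 2.32 and 3.96 to 24.0, 9.46 and 28.4. The differences of PRKCQ, GSAP and RORB were -2.70, -2.36 and -2.90 on the log2 scale (adjusted p = 0.0237, 0.0324 and 0.00745). Leaving out 1 animal gave 0 calls without saline replicate 1, 4 and 6 without OTV replicates 3 and 1, 9 without saline replicate 2, 21 and 23 without ASO replicate 2 and OTV replicate 2, and 71 and 90 without ASO replicate 3 and saline replicate 3. Against OPC cluster 4 the count was 2 or 3 without saline replicate 1, OTV replicate 3 or OTV replicate 1, and 10, 13, 17, 20 and 23 without ASO replicate 1, saline replicate 2, ASO replicate 3, saline replicate 3 and OTV replicate 2.

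Set against each other, the 2 treatments differed at 2816 of 13,193 genes (21.3%), 1210 higher (9.17%) and 1606 lower (12.2%) in OTV animals. This comparison and the one against saline share the OTV animals. The treatments differ in carrier, route, dose and number of doses, which cannot be told apart here. In diencephalic nuclei only 1030 genes were called, and the count was 1517 without OTV replicate 3 and 1614 without ASO replicate 1. TELO2, a co-chaperone of large kinases, was at 8.52, 7.13 and 11.6 CPM in ASO, 48.9, 62.7 and 49.6 in OTV and 19.6, 15.3 and 20.2 in saline animals (log2 2.63, SE 0.23, adjusted p = 0.000389), so the ASO animals lay below and the OTV animals above saline. ND5, a subunit of complex I, had 0 UMIs in all 3 ASO animals and 66.3, 31.4 and 70.3 CPM in OTV animals. TUBB6, OGFOD1, RHBDL2 and EYS were lower in OTV than in ASO animals by 4.23- to 6.31-fold, and lower in OTV than in all saline animals too. EFCAB11 differed in another way, at 21.2, 15.7 and 30.4 CPM in saline, 124, 111 and 119 in ASO and 13.8, 18.8 and 7.37 in OTV replicates. The ASO animals were above all others and the OTV animals overlapped saline; the log2 difference of ASO from saline was 2.37 (adjusted p = 0.0726) and was not called. MICALL2, KAT2A, EFEMP2, TMEM259, INPPL1 and MIB2 were again among the 12 leading genes that were higher, with B4GALNT4, and the 4 mitochondrial genes ND5, COX1, ND1 and ND2. REEP5, NKIRAS1, KLHL28, RARRES1, FAM151A, TNP2 and MCM7 were again among the lower.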

How the data were processed

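Raw UMI counts per nucleus, the cell type, the cluster, the animal and the doublet score were deposited by the authors in 1 matrix and 1 table of nuclei. Cell Ranger 6.1.2 and Seurat 4 are named in the submitters' processing notes. The genome build named there is a human one, whereas the features without a symbol carry Macaca fascicularis identifiers. The sources used here do not name the gene annotation used for counting. A percent of ribosomal UMIs per nucleus was deposited by the authors too and was not used. The doublet score deposited by the authors was used only to count high nuclei; their doublet column calls every nucleus a singlet, and no other caller was run.

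Here counts were summed per animal over cluster 6, 1,116,129 to 9,231,324 UMIs per animal, and fitted with edgeR 4.0.16 in R 4.3.3 (TMM, filterByExpr by group, robust quasi-likelihood, 9 animals in 1 fit, Benjamini-Hochberg over all genes, called at adjusted p under 0.05). Each standard error was taken as the size of the log2 fold change over the square root of its F. Differences between classes were interactions with animal as a block. DESeq2 1.42.0 was an alternative. The fits were tested on simulated data. Named genes have a symbol, a call, a mean of at least 10 CPM and no overlap of animals, up to 12 per direction (6 for interactions), besides the members of lists. Members and lists were chosen with earlier results of these data known. The labels number no replicates, so numbers follow accession order. The p-values set a group difference against the spread between these animals. Those of the sides and interactions set it against the spread of differences within animals. Some genes of the lists are not reported here.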

Additional observations from a re-analysis of the deposited data

Results flagged for a closer look

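The change under OTV against saline in cluster 6 differed from that in oligodendrocytes of the same animals, by edgeR's interaction test with Benjamini-Hochberg adjustment, for the 12 genes named by rule, with adjusted p between 0.00627 and 0.0324. Without saline replicate 1 all 12 calls were lost. KATNIP and RORB kept theirs in 8 of 9 fits that left out 1 animal, and SLC4A9 and GSAP in 4 and 3 of 9, with adjusted p up to 0.187 and 0.229. The difference was positive for KATNIP (1.77), NEK6 (1.70), PRKD2 (2.31), TRAF3IP2 (1.38), RANBP3L (2.01) and AP3B2 (2.40), on the log2 scale. NEK6, a mitotic kinase, was at 106, 109 and 98.3 CPM in saline and 73.8, 134 and 75.7 in OTV animals of cluster 6, and fell in oligodendrocytes from 79.3, 78.2 and 77.8 to 22.5, 26.2 and 15.7. RANBP3L, at 269, 238 and 301 and then 197, 210 and 154 CPM in cluster 6, fell in oligodendrocytes from 44.9, 35.7 and 32.9 to 5.12, 9.33 and 5.91.

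The difference was negative for RORB (-2.90), FSCN1 (-1.60), LIPE (-1.48), PRKCQ (-2.70), SLC4A9 (-2.08) and GSAP (-2.36). FSCN1, an actin bundling protein, fell in cluster 6 from 64.9, 64.6 and 78.6 to 27.9, 26.9 and 17.8 CPM and was at 155, 146 and 164 and then 180, 160 and 147 in oligodendrocytes.

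Against OPC cluster 4, CDH19 differed by 2.79 (adjusted p = 0.00264), a call kept without each animal. TMTC2 differed by -1.59 (adjusted p = 0.0202), a call lost without ASO replicate 2, OTV replicate 3 or saline replicate 1 (adjusted p up to 0.173). CDH19, a cadherin, rose in cluster 6 from 5.5, 5.09 and 10.7 to 39.2, 34.1 and 29.1 CPM and was at 487, 353 and 458 and then 346, 269 and 336 in the precursors.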

How the results depend on the processing

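No paired analysis was possible because the labels link no animals of different groups. For ASO against saline the count of 2 became 70 under the DESeq2 Wald test, 5 in diencephalic nuclei only, 6 without a filter on low counts and 5 with a term for the telencephalic share, and 1 to 6 without 1 animal. For OTV against saline the count of 1930 became 761 in diencephalic nuclei only, 1266 in nuclei without a telencephalic UMI and 1075 in sums thinned to the smallest total, and 831 to 1900 without 1 animal. For OTV against ASO the count of 2816 became 1030 and 1562 in diencephalic nuclei and thinned sums, and 1517 to 3033 without 1 animal. For the 2 sides the count of 0 became 5 under the DESeq2 Wald test, 3 with DESeq2 size factors, 104 without a filter and 4 in nuclei thinned to 2000 UMIs, which left 2 animals, and 0 to 38 without 1 animal. The side test with at least 2 UMIs per nucleus was not run, since 1 animal was left. Without a filter the interactions gave 83 genes against oligodendrocytes and 20 against OPC cluster 4, and 0 to 90 and 2 to 23 without 1 animal. The exact p of MALAT1 ran from 0.0250 to 0.3 and that of the telencephalic share from 0.132 to 0.582 without 1 animal. Thinned sums and diencephalic nuclei hold fewer UMIs and test fewer genes, and otherwise the cause was not tested. Over 187 genes, 3276 values under alternatives kept their direction in every case, and 447 of them lost and 2 gained a call. OTV nuclei of replicate 3 and all of OTV replicate 2 hold the fewest UMIs per nucleus or in sum, which limits low genes.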
